A study of Mus musculus with 8 samples.

Results

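Heat shock proteins and DnaJ co-chaperones were followed in mouse tumour cells sorted by the activity of a replication gene's promoter. A gene was taken when its symbol in the array annotation began with Hspa, Hspb, Hspd, Hspe, Hsph or Hsp9, or with Dnaj. Hspg2, which encodes the matrix proteoglycan perlecan, was left out. The rule gave 72 of 18193 named genes, 28 Hsp genes and 44 Dnaj genes. The 2 lines used, Lewis lung carcinoma (LLC) and the colon cancer line colon26, both stably carried enhanced green fluorescent protein (EGFP) under the mouse PSF1 promoter. PSF1 is the product of Gins1 and a subunit of the GINS complex of the replication fork. Tumours were grown subcutaneously in mice for 4 weeks (LLC) or 2 weeks (colon26), dissociated, and split by FACS into EGFP-low and EGFP-high cells. The 4 groups, LLC low, LLC high, colon26 low and colon26 high, had 2 arrays each, numbered 1 and 2, and no array came from cells without the reporter. The labels give no strain or age of the mice, do not say whether a line is 1 clone, and do not say whether equally numbered or differently numbered samples came from separate tumours. The p-values therefore measure the spread between these samples, which may be technical. The line and the weeks of growth cannot be told apart.

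Molecular chaperones bind unfolded or partly folded proteins and keep them from aggregating. HSP70 proteins clamp onto their clients in cycles of ATP hydrolysis, which J proteins of the DnaJ family start through their J domain and which nucleotide exchange factors, such as the HSP110 proteins, complete. HSP90 takes over clients at a later stage, small heat shock proteins hold unfolded proteins without using ATP, and separate chaperone sets serve the endoplasmic reticulum (ER) and the mitochondria. In the cytosol the heat shock factor HSF1 switches on many of these genes through heat shock elements, arrays of the pentamer NGAAN in alternating orientation. In the ER the unfolded protein response does so through the ER stress element.

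The promoter sequences of 8 genes are shown first, since the genes below differ in which of these elements stand near their start. The windows run from 250 bases before to 50 bases after a RefSeq transcription start, on mouse build GRCm38.p6, and 59 of the 72 genes could be matched to a window by symbol. They are written 5′ to 3′ on the gene's strand, with the matched motif in capitals. Hspa1a (chr17:34972107-34972406, minus strand) and its neighbour Hspa1b (chr17:34959189-34959488, minus strand) encode the stress-inducible HSP70, and their windows are identical at 296 of 300 positions. Hspb8 (chr5:116422815-116423114, minus strand) encodes a small heat shock protein. In these 3 windows the capitals mark GAANNTTC, a facing pair of heat shock pentamers.
Hspa1a: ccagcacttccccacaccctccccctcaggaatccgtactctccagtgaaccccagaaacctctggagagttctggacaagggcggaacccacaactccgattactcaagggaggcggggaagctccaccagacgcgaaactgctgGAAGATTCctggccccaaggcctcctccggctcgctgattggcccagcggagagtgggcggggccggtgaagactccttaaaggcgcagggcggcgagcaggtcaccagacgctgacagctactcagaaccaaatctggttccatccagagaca
Hspa1b: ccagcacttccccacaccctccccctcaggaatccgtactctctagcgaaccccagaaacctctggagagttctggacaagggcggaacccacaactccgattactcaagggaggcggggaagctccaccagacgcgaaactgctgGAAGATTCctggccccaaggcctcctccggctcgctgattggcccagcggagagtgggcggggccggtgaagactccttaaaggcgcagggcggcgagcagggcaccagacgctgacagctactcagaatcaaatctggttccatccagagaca
Hspb8: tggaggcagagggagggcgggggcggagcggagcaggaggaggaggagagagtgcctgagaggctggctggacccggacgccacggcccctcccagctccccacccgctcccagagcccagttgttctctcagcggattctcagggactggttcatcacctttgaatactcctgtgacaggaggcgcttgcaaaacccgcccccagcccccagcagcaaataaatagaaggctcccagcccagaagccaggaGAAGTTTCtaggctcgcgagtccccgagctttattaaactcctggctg

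Hspa5 (chr2:34771840-34772139, plus strand), Hsp90b1 (chr10:86705395-86705694, minus strand) and Dnajc3 (chr14:118937682-118937981, plus strand) encode chaperones of the ER lumen. The capitals mark the ER stress element, CCAAT and CCACG with 9 free bases between them, or its reverse complement.
Hspa5: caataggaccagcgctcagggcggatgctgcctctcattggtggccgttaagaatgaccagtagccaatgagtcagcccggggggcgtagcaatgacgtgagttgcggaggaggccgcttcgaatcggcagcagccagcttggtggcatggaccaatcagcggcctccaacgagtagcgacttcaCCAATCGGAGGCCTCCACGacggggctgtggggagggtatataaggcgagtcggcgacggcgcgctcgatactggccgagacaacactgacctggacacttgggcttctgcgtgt
Hsp90b1: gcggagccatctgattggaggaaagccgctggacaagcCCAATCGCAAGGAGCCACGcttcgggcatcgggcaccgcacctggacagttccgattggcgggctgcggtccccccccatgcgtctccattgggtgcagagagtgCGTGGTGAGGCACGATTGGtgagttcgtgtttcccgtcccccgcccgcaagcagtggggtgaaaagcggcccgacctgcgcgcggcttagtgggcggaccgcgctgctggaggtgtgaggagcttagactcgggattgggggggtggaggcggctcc
Dnajc3: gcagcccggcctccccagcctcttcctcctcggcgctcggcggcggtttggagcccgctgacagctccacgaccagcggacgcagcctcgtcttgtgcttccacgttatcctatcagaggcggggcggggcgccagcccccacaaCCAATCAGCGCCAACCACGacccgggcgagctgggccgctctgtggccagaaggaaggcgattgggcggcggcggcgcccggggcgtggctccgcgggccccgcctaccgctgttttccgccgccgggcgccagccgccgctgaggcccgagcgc

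Dnajb9 (chr12:44210019-44210318, minus strand), another ER J protein, and Dnajc9 (chr14:20388861-20389160, minus strand), a histone chaperone with a J domain, were the genes with the largest fall and the largest rise in LLC. The capitals mark the E2F site variant TTTGGCGC (read here as GCGCCAAA) in Dnajb9 and the E2F site TTTCCCGC (read here as GCGGGAAA) in Dnajc9. E2F factors drive many genes of DNA replication.
Dnajb9: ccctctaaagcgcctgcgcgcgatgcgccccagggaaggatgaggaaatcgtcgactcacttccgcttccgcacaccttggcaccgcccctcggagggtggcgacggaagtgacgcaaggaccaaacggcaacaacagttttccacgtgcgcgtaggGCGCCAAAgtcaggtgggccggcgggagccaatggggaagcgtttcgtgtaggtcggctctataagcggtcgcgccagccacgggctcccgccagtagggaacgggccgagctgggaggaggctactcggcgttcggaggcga
Dnajc9: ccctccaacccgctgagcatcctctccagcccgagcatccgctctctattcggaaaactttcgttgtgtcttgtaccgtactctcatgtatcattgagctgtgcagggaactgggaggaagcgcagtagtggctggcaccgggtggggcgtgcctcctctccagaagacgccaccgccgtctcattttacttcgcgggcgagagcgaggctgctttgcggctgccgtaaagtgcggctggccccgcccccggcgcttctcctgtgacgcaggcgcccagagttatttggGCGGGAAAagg

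Both strands of every window were searched. The facing pair GAANNTTC was found in 16 of the 76 windows of the 59 genes matched (14 genes), and 7.86% of all 32851 promoter windows held it. The outward pair TTCNNGAA was found in 8 of the 76 windows (6 genes), against 8.52% of all windows. Its matches in Hspd1 and Hspe1 overlap those of the facing pair. These genes, which encode the mitochondrial chaperonin HSP60 and its partner HSP10, lie head to head and share 1 such cluster. The ER stress element stood in windows of 3 genes, Hspa5, Hsp90b1 (2 matches) and Dnajc3, and in 39 windows of all genes (0.119%). TGACGTGG, another element of the unfolded protein response, was found for Dnajc25 and in 0.676% of all windows. TTTCCCGC was found for Dnajc9 (1.07% of all windows), and TTTGGCGC for Dnajb9 and Dnajc5g (0.514%). A match is a description of the letters in the window.

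Values are deposited log2 signals, and every difference below is a log2 difference. Gins1, the gene whose promoter drove the sort, was 7.23 and 7.14 in the low arrays and 8.42 and 8.51 in the high arrays of LLC and 7.56 and 6.97 in the low arrays and 8.29 and 8.38 in the high arrays of colon26. It rose by 1.28 (SE 0.21, adjusted p = 0.0033 by limma) in LLC and by 1.07 (SE 0.21, adjusted p = 0.017 by limma) in colon26. Of 9 mitosis genes, 9 rose in LLC and 8 in colon26. Markers of other cell types moved the opposite way: 9 of 12 macrophage markers fell in LLC (median of the list -1.49) and 11 of 12 in colon26 (-2.93), and 8 of 9 fibroblast markers fell in LLC (-2.97) and 4 of 9 in colon26 (-0.66). In LLC the mean macrophage marker level was 6.91 and 7.07 on the low arrays and 5.61 and 5.77 on the high arrays. In colon26 it was 8.92 and 8.43 on the low arrays and 6.02 and 5.85 on the high arrays. Of the 12, 8 to 10 were above log2 5 in each high array. Both neutrophil markers tested (S100a8 and S100a9) fell in both lines, and 0 of 4 T and NK cell markers passed in either line (0 and 1 at an unadjusted p under 0.05 by limma). Of 12 immediate early genes, 6 fell in LLC (-0.70) and 0 in colon26 (0.05; 1 at an unadjusted p under 0.05 by limma). Epithelial markers were uneven: Krt8 lay between 12.4 and 12.8 on the LLC arrays and between 5.31 and 5.95 on the colon26 arrays, and Cdh1, Krt19 and Cldn7 did not pass the filter on low signal. In such bulk samples, fewer cells of a type and less RNA per cell cannot be told apart.

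Arrays numbered 1 stood apart from arrays numbered 2 in every group. Control transcripts were brighter at the 3′ end than at the 5′ end by 2.55 ± 0.13 (SD, n = 4) on the arrays numbered 1 and by 0.18 ± 0.15 (SD, n = 4) on those numbered 2. The difference between numbers was shared by the low and high arrays of a line (r = 0.89 across genes in LLC and 0.84 in colon26, genes not being independent), and each of the 8 arrays lay nearest to the array of the other sort with its line and number. Low and high arrays were compared within a number. For the 61 genes tested, the median absolute difference between arrays of the same group was 0.34, against 0.23 between the low and high array of a pair. Without the pairing, 0 of the 61 genes passed in LLC, colon26 or their mean (limma, adjusted p under 0.05), and 3, 0 and 3 had an unadjusted p under 0.05. Of all genes tested this way, 0.0%, 0.0246% and 0.0575% passed the adjusted threshold and 6.52%, 3.6% and 8.06% the unadjusted one. The test of the difference between the lines gave 0 of 61 without the pairing (1 at an unadjusted p under 0.05 by limma), against 2.22% of all genes at the unadjusted threshold. Every call below of a change with the sort in the 61 genes thus rests on the pairing of arrays by number. So does the call of a difference in change between the lines.

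As a family the chaperones showed no common direction with the sort. In LLC, 5 genes rose and 5 fell in the high cells, 10 of the 61 tested (16.4%), against 11.0% of all 12177 genes tested, of which 4.98% rose and 6.04% fell. The median change of the 61 was 0.00, and that of all genes 0.04. In colon26, 1 gene fell (1.64%), against 3.77% of all genes, of which 2.18% rose and 1.58% fell, with medians of 0.11 and 0.08. Over the mean of both lines, 5 rose and 2 fell, 7 of 61 (11.5%), against 13.0% of all genes (7.47% up and 5.57% down), with medians of 0.04 and 0.04. At an unadjusted p under 0.05 by limma, 17, 8 and 19 of the 61 passed in LLC, colon26 and their mean, against 25.2%, 16.5% and 27.4% of all genes. Counting direction alone, 18 genes were higher in the high cells in 4 of 4 pairs (29.5%, all genes 21.4%) and 4 were lower in 4 of 4 (6.56%, all genes 9.24%). Those lower were Dnajb9, Dnajb12, Dnajc1 and Dnajc13.

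The other 11 genes did not reach log2 5 on 2 arrays and were not tested: Hspa1l, Hspb3, Hspb7, Hspb9, Dnajb3, Dnajb7, Dnajb8, Dnajc5b, Dnajc5g, Dnajc6 and Dnajc28. Several of these are known from testis, muscle or nerve. Hsp90ab1, the constitutive cytosolic HSP90, carried no probe set of its own name and was not analysed here. The calls moved with the arrays used. Leaving out LLC pair 1 or LLC pair 2 left 1 call in LLC (Dnajc9 and Dnajb9, respectively), leaving out either colon26 pair left 4, and in colon26 leaving out either colon26 pair left 0.

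**Figure D1:**
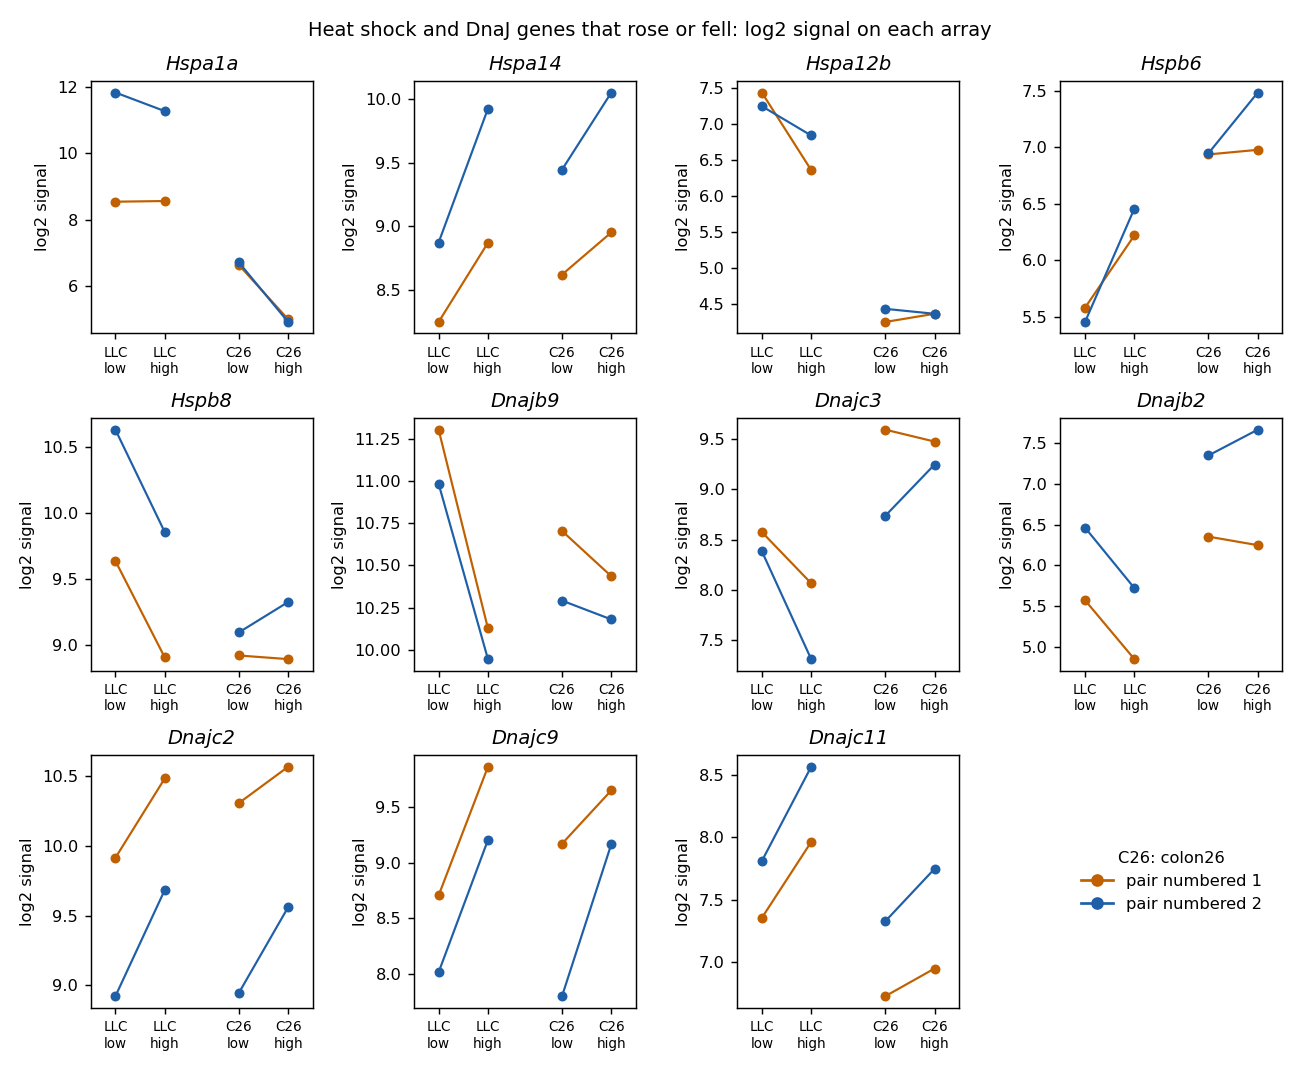
Log2 signal (y axis, 1 scale per gene) of the 11 heat shock and DnaJ genes that passed limma's test in LLC, colon26 or their mean, on each of the 8 arrays. A line joins the low and high array of a pair, orange for number 1 and blue for number 2; Dnajc9 and Hspa14 rose in 4 of 4 pairs and Dnajb9 fell in 4 of 4.

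Dnajc9 had the largest rise of the 61 genes in LLC and over the mean of both lines. The protein binds histones H3 and H4 and recruits HSP70 to them through its J domain. Its signal in LLC was 8.70 and 8.01 in the low arrays and 9.86 and 9.20 in the high arrays, and in colon26 9.17 and 7.80 in the low arrays and 9.65 and 9.17 in the high arrays. Each high array exceeded its low partner, and in LLC both high arrays exceeded both low arrays, whereas in colon26 the high array numbered 2 and the low array numbered 1 were level. It rose by 1.17 (SE 0.22, adjusted p = 0.0081 by limma) in LLC, 2.26-fold. In colon26 the difference was 0.92 (SE 0.22) and missed the threshold, with an adjusted p of 0.05 by limma after rounding. Over both lines it rose 2.07-fold (1.05 (SE 0.16, adjusted p = 0.0017 by limma)), and the changes in the lines differed by 0.25 (SE 0.32, adjusted p = 0.76 by limma). Leaving out LLC pair 2 ended the LLC call, at 1.16 with an adjusted p of 0.072 by limma. Its window above is the only one of these genes with TTTCCCGC. The 9 mitosis genes had medians of 2.17 in LLC and 1.87 in colon26; their part in its change was not tested.

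Dnajc2 and Dnajc21 are grouped with Dnajc9 here as J proteins of ribosomes and histones. Dnajc2 (ZRF1) works at the ribosome with the atypical HSP70 Hspa14 and also binds ubiquitinated histone H2A. It stood at 9.91 and 8.92 in the low arrays and 10.48 and 9.68 in the high arrays of LLC and rose by 0.67 (SE 0.19, adjusted p = 0.045 by limma). In colon26 it stood at 10.31 and 8.94 in the low arrays and 10.57 and 9.56 in the high arrays, a difference of 0.44 (SE 0.19, adjusted p = 0.27 by limma). Arrays numbered 1 were brighter than those numbered 2 throughout, so that the groups overlapped although the high array was above its low partner in 4 of 4 pairs. A second probe set gave a change of 0.67 in LLC too, and over both lines the gene rose by 0.55 (SE 0.13, adjusted p = 0.021 by limma). The LLC call ended when any 1 pair was left out, with adjusted p from 0.058 to 0.72 by limma.

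Hspa14, the partner of Dnajc2 at the ribosome, rose as well. Its signal was 8.24 and 8.87 in the low arrays and 8.87 and 9.93 in the high arrays of LLC and 8.62 and 9.45 in the low arrays and 8.95 and 10.05 in the high arrays of colon26. The high array was above its low partner in 4 of 4 pairs, and pairs numbered 2 lay above pairs numbered 1. The rise was 0.84 (SE 0.19, adjusted p = 0.019 by limma) in LLC, 1.79-fold, and 0.66 (SE 0.14, adjusted p = 0.01 by limma) over both lines. The colon26 value of 0.47 did not pass (adjusted p = 0.26 by limma). Its dimmer probe sets gave 0.39 and 0.22 in LLC, and the LLC call ended when any 1 pair was left out (adjusted p from 0.057 to 0.62 by limma).

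Dnajc21, needed for the maturation of the large ribosomal subunit in the cytosol, had values of opposite sign in the lines. It was 9.48 and 8.14 in the low arrays and 9.25 and 7.86 in the high arrays of LLC and 11.90 and 10.58 in the low arrays and 12.12 and 10.83 in the high arrays of colon26. The high array was lower in both LLC pairs and higher in both colon26 pairs, by less than the gap between numbers, and neither change passed (-0.26, adjusted p = 0.41, and 0.24, adjusted p = 0.53, by limma). Its second probe set gave -0.20 in LLC and 0.22 in colon26. The dimmer ones had the reverse signs (0.04 and -1.09 for the brightest of them), so its direction depends on the probe set.

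Hspa1a gave the largest fall, in colon26. With Hspa1b it encodes the inducible cytosolic HSP70, the classic product of the heat shock response. It stood at 6.64 and 6.72 in the low arrays and 5.0 and 4.92 in the high arrays of colon26, so both low arrays lay above both high ones, and at 8.54 and 11.83 in the low arrays and 8.56 and 11.27 in the high arrays of LLC. It fell by 3.29-fold in colon26 (-1.72 (SE 0.20, adjusted p = 0.0011 by limma)). In LLC the value was -0.27 (SE 0.20, adjusted p = 0.45 by limma), with 1 pair level and 1 pair lower. The fall in colon26 differed from the LLC value by 1.45 (SE 0.28, adjusted p = 0.038 by limma), the only one of 61 genes (1.64%) whose change differed between the lines, against 1.41% of all genes (0.427% with the higher value in LLC and 0.985% in colon26). The high arrays of colon26 were near the bottom of the scale, where the median of all probe sets of an array lay between 4.76 and 5.02. Leaving out either colon26 pair ended the call in colon26 (-1.80 with an adjusted p of 0.064, and -1.64 with 0.18, by limma). The difference between the lines was not called without LLC pair 1 (1.16, adjusted p = 0.24 by limma) or without either colon26 pair (adjusted p of 0.13 and 0.40 by limma). In colon26, 11 of 12 macrophage markers fell (median of the list -2.93); their part was not tested.

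Hspa1b, almost the same in sequence, did not pass. It was 11.25 and 11.63 in the low arrays and 11.03 and 12.04 in the high arrays of colon26, a change of 0.09 (SE 0.23, adjusted p = 0.86 by limma), and 11.27 and 12.91 in the low arrays and 11.47 and 12.43 in the high arrays of LLC, a change of -0.13 (SE 0.23, adjusted p = 0.79 by limma). Its 3 probe sets gave between 0.09 and 0.25 in colon26. Hspa1a had 1 probe set, so its value rests on that probe set alone. Since the transcripts of these paralogs are nearly identical, signal could be shared between their probe sets, and the split between the genes is uncertain.

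**Figure D2:**
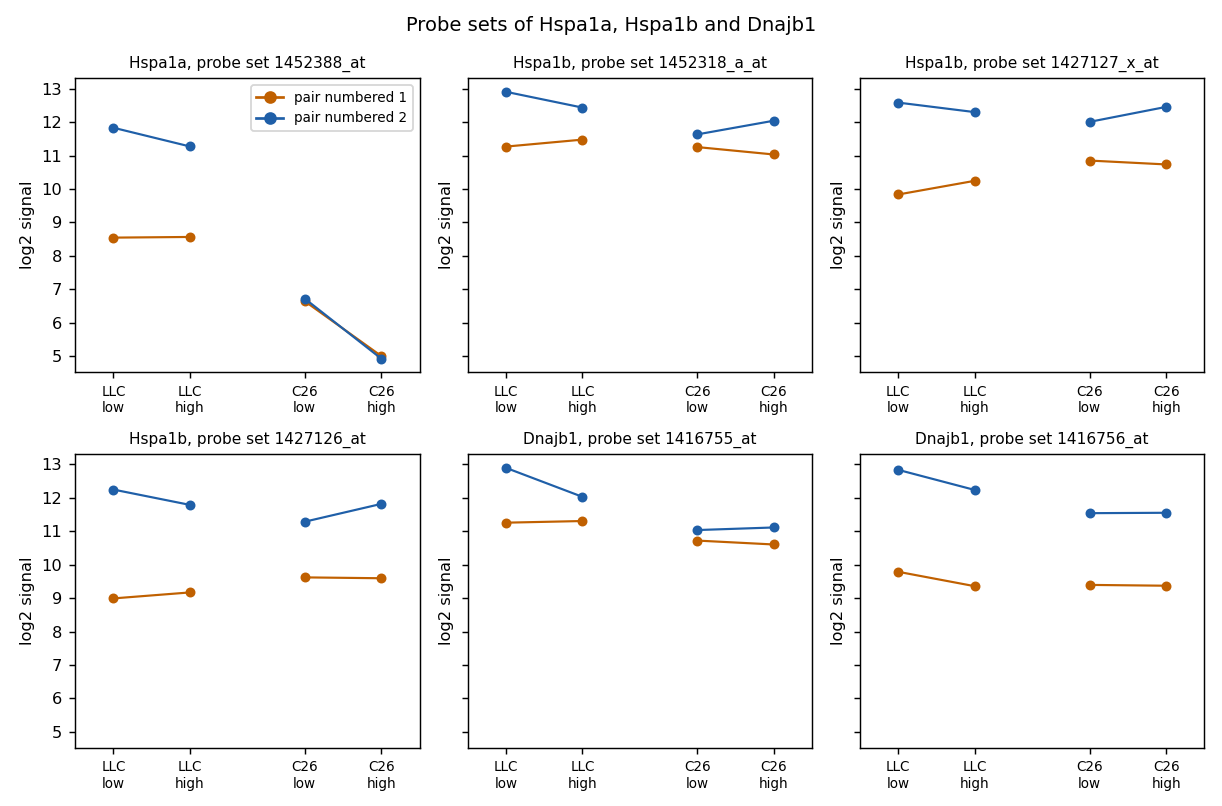
Log2 signal (y axis) of each probe set of Hspa1a, Hspa1b and their co-chaperone gene Dnajb1 on the 8 arrays, with a line joining the low and high array of a pair. Hspa1a fell in colon26 from 6.64 and 6.72 to 5.0 and 4.92, whereas the 3 probe sets of Hspa1b were at 9.59 or above on each colon26 array; most probe sets were brighter on arrays numbered 2.

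Hspa8 and Hsp90aa1 did not pass either. Hspa8, the constitutive HSP70, was 13.62 ± 0.00 on the low and 13.60 ± 0.15 on the high LLC arrays, and 13.38 ± 0.30 and 13.51 ± 0.16 on those of colon26 (SD, n = 2 each). Hsp90aa1, the inducible HSP90, was 12.71 ± 0.39 and 12.84 ± 0.32 in LLC, and 12.27 ± 0.19 and 12.53 ± 0.41 in colon26 (SD, n = 2 each). Neither passed the test in a line (changes of -0.02 and 0.12 for Hspa8, 0.14 and 0.26 for Hsp90aa1). Hspa2, an HSP70 best known from testis, lay between 4.80 and 5.78 in its group means and gave -0.35 and -0.16, not called.

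The 4 genes of the HSP110 proteins and the exchange factor Hspbp1 had mostly positive values, but 0 of 4 passed in either line (1 in LLC and 0 in colon26 at an unadjusted p under 0.05 by limma). Their median was 0.31 in LLC and 0.29 in colon26. Of all 12177 genes tested, 6722 had a positive value in LLC and 7504 in colon26. Hspa4 gave 0.30 and 0.37, Hspa4l 0.31 and 0.26, and Hspbp1 0.53 and 0.32 in LLC and colon26. Each of these, by its brightest probe set, was higher in the high cells in 4 of 4 pairs. The other 3 probe sets of Hspa4 were lower in the high cells in both LLC pairs (-0.31, -0.36 and -0.19), so its direction in LLC depends on the probe set. Those of Hspa4l gave from -0.12 to 0.38 in LLC. Hsph1, the heat-inducible HSP110, gave -0.15 in LLC and 0.19 in colon26.

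Among the small heat shock proteins, Hspb8 fell and Hspb6 rose in LLC. Hspb8 acts with the co-chaperone Bag3 in the selective autophagy of misfolded proteins. It was 9.64 and 10.63 in the low arrays and 8.90 and 9.85 in the high arrays of LLC, a fall of 0.73 and 0.78 in the pairs, and 8.92 and 9.09 in the low arrays and 8.89 and 9.32 in the high arrays of colon26. The LLC change was -0.75 (SE 0.18, adjusted p = 0.023 by limma), 1.69-fold lower, and the colon26 change 0.10 (SE 0.18, adjusted p = 0.81 by limma). The gap between pairs of LLC was larger than the change, so the low array numbered 1 lay below the high array numbered 2. Its dimmer probe sets gave -0.47 and -0.36, and the call ended without either LLC pair (adjusted p of 0.25 and 0.45 by limma). The difference between the lines was -0.85 (SE 0.25, adjusted p = 0.17 by limma).

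Hspb6 (HSP20), known from muscle, was a dim gene: 5.58 and 5.46 in the low arrays and 6.22 and 6.46 in the high arrays of LLC and 6.94 and 6.95 in the low arrays and 6.98 and 7.48 in the high arrays of colon26. In LLC both high arrays exceeded both low arrays, and it rose by 0.82 (SE 0.20, adjusted p = 0.026 by limma), 1.77-fold. Over both lines the rise was 0.55 (SE 0.14, adjusted p = 0.028 by limma). The LLC call ended when any 1 pair was left out (adjusted p from 0.053 to 0.61 by limma). Of 3 skeletal muscle markers tested, 0 passed in either line, and 0 had an unadjusted p under 0.05 by limma. Hspb1 (HSP25), the common stress-induced small heat shock protein, was low in both lines and uneven between pairs: its changes were 0.62 and -0.40 in LLC and -0.15 and -1.32 in colon26. Its test gave 0.11 (SE 0.30, adjusted p = 0.88 by limma) and -0.73 (SE 0.30, adjusted p = 0.26 by limma). These values are from its brightest probe set. The dimmer probe set of Hspb1 was lower in the high array of every pair, by -0.05 and -0.27 in LLC and by -0.74 and -1.52 in colon26. Hspb2 also did not pass, and Hspb11 and Hspbap1, which share the name but not the fold, were not called.

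Hspa12b, a distant HSP70 known from endothelial cells, fell in LLC. It was 7.43 and 7.24 in the low arrays and 6.36 and 6.84 in the high arrays of LLC, with both high arrays below both low ones, and between 4.25 and 4.44 on the colon26 arrays, below the filter of 5. The change was -0.74 (SE 0.21, adjusted p = 0.045 by limma) in LLC and 0.02 (SE 0.21, adjusted p = 0.97 by limma) in colon26. Without LLC pair 1 the value was -0.41 and without LLC pair 2 it was -1.07. The call ended when any 1 pair was left out, with adjusted p from 0.090 to 0.72 by limma. Of 5 endothelial markers, 0 fell in LLC (2 at an unadjusted p under 0.05 by limma, median -0.34) and 3 fell in colon26 (-1.27), and the mean level of the 7 endothelial markers on the array, the 5 and 2 that did not pass the filter, was 4.11 to 4.67 in LLC and 4.56 to 5.79 in colon26; their part was not tested. Its relative Hspa12a gave 0.31 in LLC.

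Among the ER chaperone genes, 4 of the 8 grouped here under the lumen (Dnajc3, Hspa13, Hsp90b1 and Hspa5) had a negative value in LLC and a positive one in colon26. These values are from the brightest probe set, and a dimmer one of Hspa5 gave the reverse signs. Of the 8 genes, 2 fell in LLC, 6 had a negative value and the median was -0.41; in colon26, 0 passed (0 at an unadjusted p under 0.05 by limma), 6 had a positive value and the median was 0.22. The membrane-bound J proteins of the secretory pathway had medians of -0.34 and 0.11 and 0 of 6 called in either line (2 and 1 at an unadjusted p under 0.05 by limma). The medians of all genes were 0.04 and 0.08. Of all 12177 genes tested, 5455 had a negative value in LLC and 7504 a positive one in colon26, and 6.04% fell in LLC. None of the 8 ER lumen genes passed the test of the difference between the lines.

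Dnajb9 (ERdj4), which helps in the disposal of misfolded ER proteins and holds back the stress sensor IRE1, had the largest fall of the 61 genes in LLC. Its signal was 11.30 and 10.98 in the low arrays and 10.13 and 9.94 in the high arrays of LLC and 10.70 and 10.29 in the low arrays and 10.44 and 10.18 in the high arrays of colon26. In LLC both high arrays lay below both low arrays, and in colon26 the low and high groups overlapped. It fell 2.16-fold in LLC (-1.11 (SE 0.18, adjusted p = 0.0032 by limma)) and gave -0.19 (SE 0.18, adjusted p = 0.62 by limma) in colon26. Over both lines it fell 1.57-fold (-0.65 (SE 0.13, adjusted p = 0.0074 by limma)). The difference of the changes was -0.92 (SE 0.25, adjusted p = 0.13 by limma). Without LLC pair 1 the LLC value was -1.04, with an adjusted p of 0.070 by limma.

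Dnajc3 (p58IPK), an ER J protein that assists BiP, was 8.58 and 8.39 in the low arrays and 8.07 and 7.31 in the high arrays of LLC and 9.59 and 8.74 in the low arrays and 9.48 and 9.25 in the high arrays of colon26. Both high LLC arrays lay below both low ones, and the colon26 pairs split, 1 lower and 1 higher. It fell by 1.73-fold in LLC (-0.79 (SE 0.22, adjusted p = 0.044 by limma)), and the colon26 change was 0.20 (SE 0.22, adjusted p = 0.68 by limma). All 5 of its probe sets gave negative values in LLC, from -0.42 to -0.79. Without LLC pair 2 the value was -0.51 and without LLC pair 1 it was -1.07. The call ended when any 1 pair was left out (adjusted p from 0.066 to 0.82 by limma).

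Hspa5 and Hsp90b1, whose windows above also hold the ER stress element, did not pass. Hspa5 (BiP), the HSP70 of the ER, was 13.53 and 13.05 in the low arrays and 13.32 and 12.80 in the high arrays of LLC and 13.61 and 13.18 in the low arrays and 13.55 and 13.29 in the high arrays of colon26, and gave -0.23 (SE 0.18, adjusted p = 0.47 by limma) and 0.03 (SE 0.18, adjusted p = 0.96 by limma). Its second probe set gave -0.42 in LLC and 0.23 in colon26. The dimmest gave 0.34 and -0.18, so the direction depends on the probe set. Hsp90b1 (GRP94), the HSP90 of the ER, was 11.52 and 11.80 in the low arrays and 11.16 and 11.42 in the high arrays of LLC and 11.72 and 11.85 in the low arrays and 11.90 and 12.20 in the high arrays of colon26. The high array was lower in both LLC pairs and higher in both colon26 pairs, but neither change passed (-0.37 (SE 0.18, adjusted p = 0.23 by limma) and 0.26 (SE 0.18, adjusted p = 0.49 by limma)). The second probe set of Hsp90b1 was also lower in both LLC pairs but split the colon26 pairs (-0.15 and 0.59). Hspa13, an HSP70-like protein of microsomes, likewise gave -0.45 in LLC and 0.33 in colon26, not called. Dnajb11 (ERdj3), which brings clients to BiP, gave 0.03 and 0.24. Dnajc10 (ERdj5), a J protein with disulfide reductase domains, went the other way from Dnajb9, with 0.33 and 0.30 and 4 of 4 pairs higher.

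The other genes of ER folding and the unfolded protein response had mostly negative values in LLC. Of 19 measured, 2 fell and 0 rose in LLC, with a median of -0.28 and 14 negative values, and 0 passed in colon26 (0 at an unadjusted p under 0.05 by limma), with a median of 0.04. Of all 12177 genes tested, 6.04% fell in LLC and 5455 had a negative value there. The 2 of the 19 that fell were Xbp1, the transcription factor whose messenger IRE1 splices, and Ern1, which encodes IRE1. Xbp1 was 11.00 and 11.15 in the low arrays and 10.39 and 10.11 in the high arrays of LLC, a change of -0.83 (SE 0.20, adjusted p = 0.027 by limma), and Ern1 changed by -0.67 (SE 0.18, adjusted p = 0.037 by limma). Both gave values near 0 in colon26 (0.01 and -0.14). The arm of the response headed by PERK showed no call: Ddit3 (CHOP) gave -0.28 in LLC. Beside these falls in LLC, 6 of 12 immediate early genes and 8 of 9 fibroblast markers fell there, and 0 of 12 and 4 of 9 did in colon26. The mean level of the immediate early genes was 9.75 and 10.84 on the LLC low arrays against 8.86 and 10.15 on the LLC high arrays, and in colon26 10.33 and 11.34 against 10.26 and 11.45. Fibroblast markers had mean levels of 10.18 and 10.60 against 7.77 and 8.02 in LLC, and of 11.14 and 10.25 against 9.46 and 9.67 in colon26. Within pairs, the mean of the immediate early genes was lower in the high array in both LLC pairs and split in colon26. The mean of the fibroblast markers was lower in the high array in both pairs of each line. The part of either list in the ER result was not tested.

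**Figure D3:**
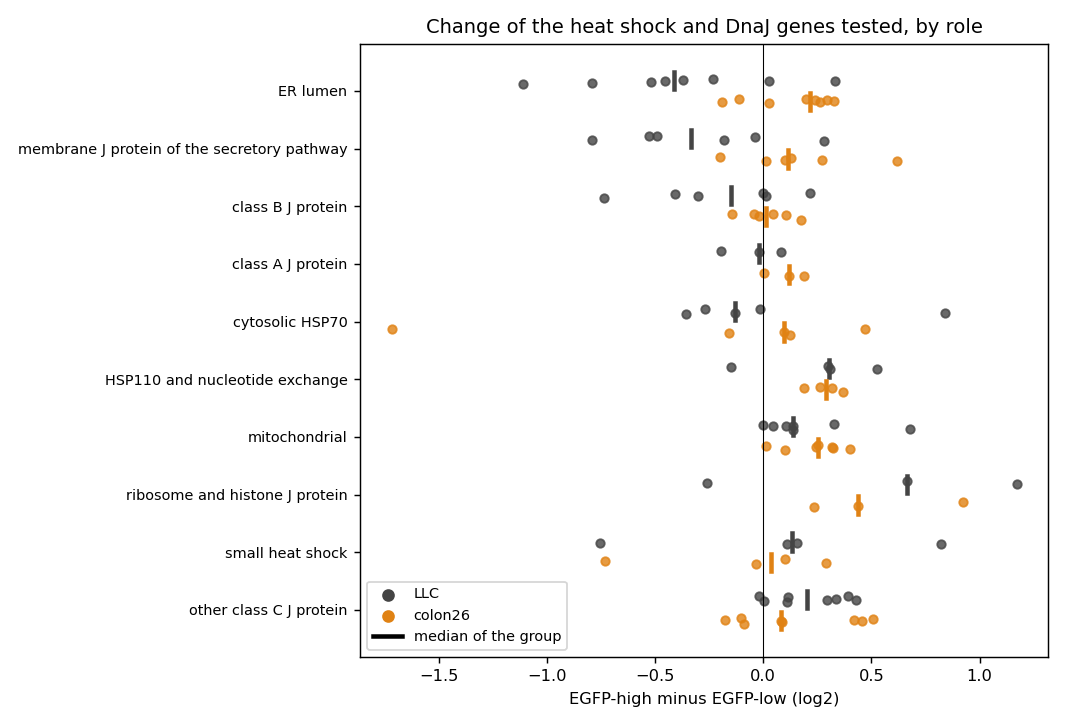
Change from low to high EGFP (x axis, log2) of the genes tested, in rows by role, with LLC in grey and colon26 in orange; each point is a gene and the short bar its group's median. The ER lumen genes have a median of -0.41 in LLC and 0.22 in colon26, and the mitochondrial genes lie at or above about 0 in both lines.

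The mitochondrial chaperones had mostly positive values, and 1 of 7 passed in LLC. Of the 7 tested, 6 had a positive value in LLC (median 0.14) and 7 in colon26 (median 0.25). Of all 12177 genes tested, 6722 had a positive value in LLC and 7504 in colon26, and 4.98% rose in LLC. Dnajc11, a J protein of the outer mitochondrial membrane linked to the cristae-organising complex, was 7.36 and 7.81 in the low arrays and 7.96 and 8.56 in the high arrays of LLC and 6.73 and 7.33 in the low arrays and 6.95 and 7.75 in the high arrays of colon26. The high array was above its low partner in 4 of 4 pairs, with pairs numbered 2 above those numbered 1. It rose by 0.68 (SE 0.18, adjusted p = 0.036 by limma) in LLC and by 0.50 (SE 0.13, adjusted p = 0.027 by limma) over both lines. Its next brightest probe set gave 0.14 in LLC. The LLC call ended when any 1 pair was left out (adjusted p from 0.053 to 0.66 by limma).

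Hspd1 (HSP60) was 12.12 and 11.95 in the low arrays and 12.37 and 12.36 in the high arrays of LLC and 12.52 and 12.19 in the low arrays and 12.65 and 12.70 in the high arrays of colon26. Its partner Hspe1 (HSP10) was 11.60 and 11.89 in the low arrays and 11.74 and 12.03 in the high arrays of LLC and 11.69 and 11.29 in the low arrays and 11.85 and 11.93 in the high arrays of colon26. By its brightest probe set, each was higher in the high cells in 4 of 4 pairs. The changes were 0.33 and 0.32 for Hspd1 and 0.14 and 0.40 for Hspe1, and none passed. A dimmer probe set of Hspe1 split the colon26 pairs (-0.04 and 0.64). Hspa9 (mortalin), the mitochondrial HSP70 that pulls proteins through the import channel, gave 0.14 and 0.25, and its J protein Dnaja3 (TID1) 0.05 and 0.24, again without a call. Of 6 mitochondrial proteases, which remove what these chaperones cannot fold, 0 passed in LLC, colon26 or the mean (1, 1 and 2 at an unadjusted p under 0.05 by limma). The brightest of them, Yme1l1, gave 0.01 and 0.17, and Clpp 0.15 and 0.21.

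Of the J proteins of the cytosol outside the groups above, 1 passed. It was 1 of 6 class B genes tested and fell in LLC, where 6.04% of all genes fell. Of 3 class A genes tested, 0 passed in either line (0 at an unadjusted p under 0.05 by limma). Of the class A proteins, which pair with Hspa8 in general folding, Dnaja1 gave -0.02 and 0.19, and Dnaja2 0.08 and 0.12. Dnajb1 (HSP40), the heat-inducible partner of HSP70, was 11.25 and 12.90 in the low arrays and 11.30 and 12.03 in the high arrays of LLC and 10.72 and 11.03 in the low arrays and 10.60 and 11.11 in the high arrays of colon26. By this brightest probe set the LLC pairs disagreed, 1 level and 1 lower by 0.87. The change was -0.41 (SE 0.23, adjusted p = 0.3 by limma). The second probe set of Dnajb1 was lower in both LLC pairs (-0.43 and -0.60). Dnajb4, a close relative, gave 0.26 and -0.86 in the LLC pairs by its brightest probe set. Dnajb6, which suppresses aggregates of polyglutamine proteins, was level at 0.02 and 0.05.

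Dnajb2, a J protein with ubiquitin-binding motifs that sends clients to the proteasome, was the class B gene that fell. It was 5.57 and 6.46 in the low arrays and 4.85 and 5.72 in the high arrays of LLC, a fall of 0.72 and 0.74 in the pairs, and 6.35 and 7.35 in the low arrays and 6.25 and 7.67 in the high arrays of colon26. The change was -0.73 (SE 0.19, adjusted p = 0.031 by limma) in LLC and 0.11 (SE 0.19, adjusted p = 0.81 by limma) in colon26, and the LLC call ended without either LLC pair (adjusted p of 0.29 and 0.47 by limma). The high array numbered 2 lay above the low array numbered 1, so the LLC groups overlapped. Dnajb2 had 1 probe set, and its LLC high array numbered 1 was below the filter of 5. Of the 8 class C proteins outside the groups above and of 2 vesicle J proteins, 0 passed in either line (1 and 2 at an unadjusted p under 0.05 by limma, all of them class C proteins).

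**Figure D4:**
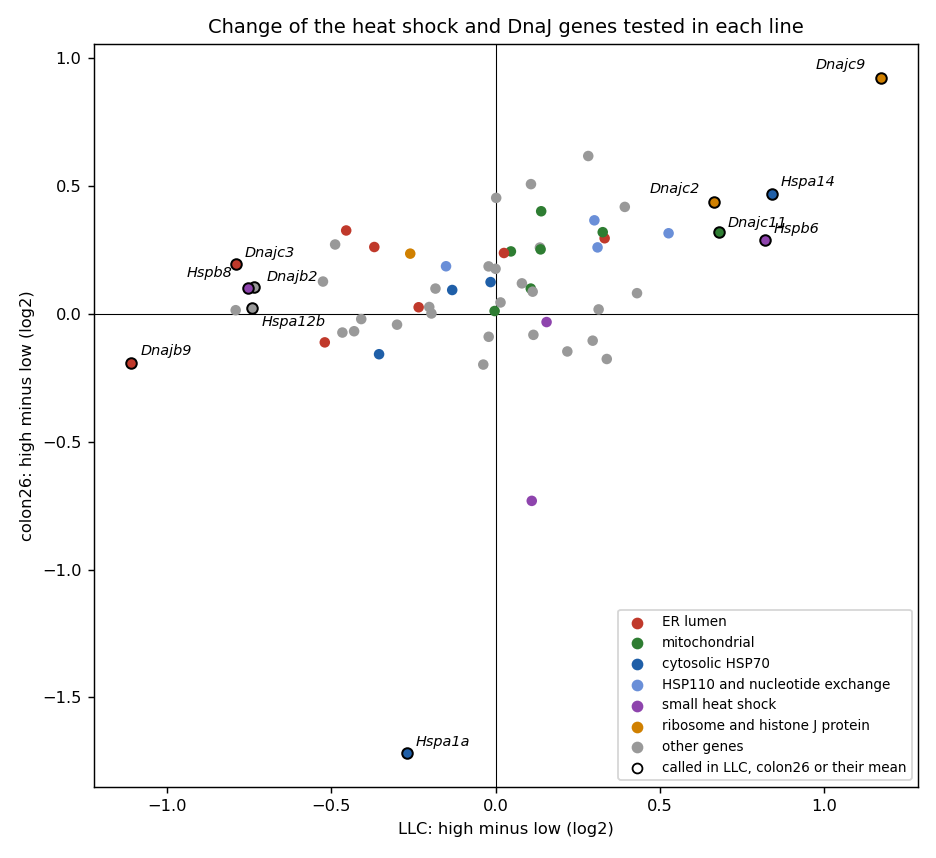
Change from low to high EGFP in LLC (x axis) and in colon26 (y axis), both log2, of the 61 genes tested, coloured by role, with a black rim on the 11 called in LLC, colon26 or their mean. Dnajc9 lies at 1.17 and 0.92, Hspa1a at -0.27 and -1.72, and Dnajb9 at -1.11 and -0.19.

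Partners of these chaperones were measured from fixed lists. For comparison, 7.47% of all 12177 genes tested rose over the mean of both lines, and 6854 had a positive value there. Of 8 co-chaperones of HSP90, 3 rose over the mean of both lines: Stip1 (HOP), which hands clients from HSP70 to HSP90, by 0.51 (SE 0.13, adjusted p = 0.026 by limma), Ahsa1, which speeds up HSP90's ATPase, by 0.45 (adjusted p = 0.039), and the immunophilin Fkbp4 by 0.53 (adjusted p = 0.037). None of the 8 passed in a line alone (5 in LLC and 3 in colon26 at an unadjusted p under 0.05 by limma), where the medians were 0.40 and 0.21. Stip1 was 7.31 and 9.17 in the low arrays and 7.62 and 9.78 in the high arrays of LLC and 7.41 and 9.54 in the low arrays and 7.97 and 10.12 in the high arrays of colon26. It was higher in the high cells in 4 of 4 pairs, with arrays numbered 2 far above those numbered 1. Of 11 partners of HSP70, 1 rose over the mean, Bag4 (0.58, adjusted p = 0.04 by limma). Of 14 genes of the chaperonin TRiC and of prefoldin, which fold actin and tubulin, 1 rose over the mean, Pfdn6 (0.51, adjusted p = 0.037 by limma), with 13 of 14 positive and a median of 0.29. Of 3 J proteins without the Dnaj name, 0 passed in either line (1 and 0 at an unadjusted p under 0.05 by limma); Sec63, of the ER translocon, gave -0.51 and 0.16, and Gak -0.03 and -0.03.

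Of 5 regulators and targets of the heat shock response tested, 2 fell in LLC and 0 passed in colon26 (0 at an unadjusted p under 0.05 by limma). Of all genes tested, 6.04% fell in LLC. Bag3, the partner of Hspb8, was 8.71 and 10.22 in the low arrays and 8.10 and 9.21 in the high arrays of LLC and fell by -0.82 (SE 0.20, adjusted p = 0.023 by limma), with 0.15 in colon26. Cryab, a small heat shock protein outside the Hspb symbols, fell by -1.41 in LLC (SE 0.31, adjusted p = 0.015 by limma). It was dim there, at 4.29 and 6.42 in the low arrays and 3.66 and 4.23 in the high arrays, and bright in colon26, between 11.4 and 11.7.

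Levels were also compared between the lines. Averaged over low and high arrays, 16 of the 61 genes were higher in LLC and 13 higher in colon26, 29 in all (47.5%), against 50.0% of all genes (21.8% higher in LLC and 28.2% in colon26). The median difference, LLC minus colon26, was 0.08 for the 61 and -0.08 for all genes. Of the 29, 4 passed the filter through 1 line only, with every array of the other line at or below 5: Hspa12b, Dnajc12 and Dnaja4 through LLC and Dnajb13 through colon26. Such a gene had to differ to be tested, and its call says no more than that. The comparison had 1 residual degree of freedom, and 2 genes, Hspa12b and Dnajc12, both of these 4, passed without the pairing by number, against 6.67% of all genes.

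By the fitted difference, the first 5 genes on the LLC side were Hspa1a (4.23 (SE 0.57, adjusted p = 0.00075 by limma), 18.8-fold), Hspa12b, Dnajc12, Dnajb14 and Dnaja4. No size is given for those with signal at or below 5 on every colon26 array. Hspa12b lay between 6.36 and 7.43 on the LLC arrays and between 4.25 and 4.44 on the colon26 arrays. Dnajc12, a co-chaperone of the aromatic amino acid hydroxylases, lay between 5.31 and 5.75 in LLC and at 3.95 or below in colon26. Dnaja4, a class A J protein, lay between 5.15 and 6.75 in LLC and at 4.82 or below in colon26. Dnajb14, which acts at the ER membrane, was 1.55 higher in LLC, with colon26 arrays numbered 1 at 7.34 and 6.88 and those numbered 2 at 4.21 and 4.70. Its other probe set overlapped between the lines, at 5.76 to 6.69 in LLC and 5.85 to 6.36 in colon26. The Dnajb14 call also ended after quantile normalization, with trend and robust moderation and with the lowest probe set above the filter. For Hspa1a the LLC arrays themselves spanned 8.54 to 11.83, so its size is loosely known. The calls of Hspa1a and Dnaja4 ended with trend and robust moderation.

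The genes most above LLC in colon26 were Dnajc21, Dnajb4, Dnajb2, Dnajc3 and Hspb6. Dnajc21 was 6.39-fold higher in colon26 (-2.68 (SE 0.16, adjusted p = 9.9e-06 by limma)), with colon26 arrays between 10.6 and 12.1 and LLC arrays between 7.86 and 9.48. Its second probe set gave the same order, at 9.76 to 10.12 against 6.15 to 6.43. Dnajb4 was higher by 2.63-fold (-1.40 (SE 0.16, adjusted p = 0.00037 by limma)), Dnajb2 by 2.39-fold, Dnajc3 by 2.26-fold and Hspb6 by 2.23-fold. The Dnajb4 call ended with the lowest probe set above the filter, and the Dnajc3 call with the low arrays alone. Of the 8 genes grouped here under the ER lumen, Dnajb11, Dnajc1, Dnajc3 and Dnajc10 were higher in colon26 and none was higher in LLC.

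**Figure D5:**
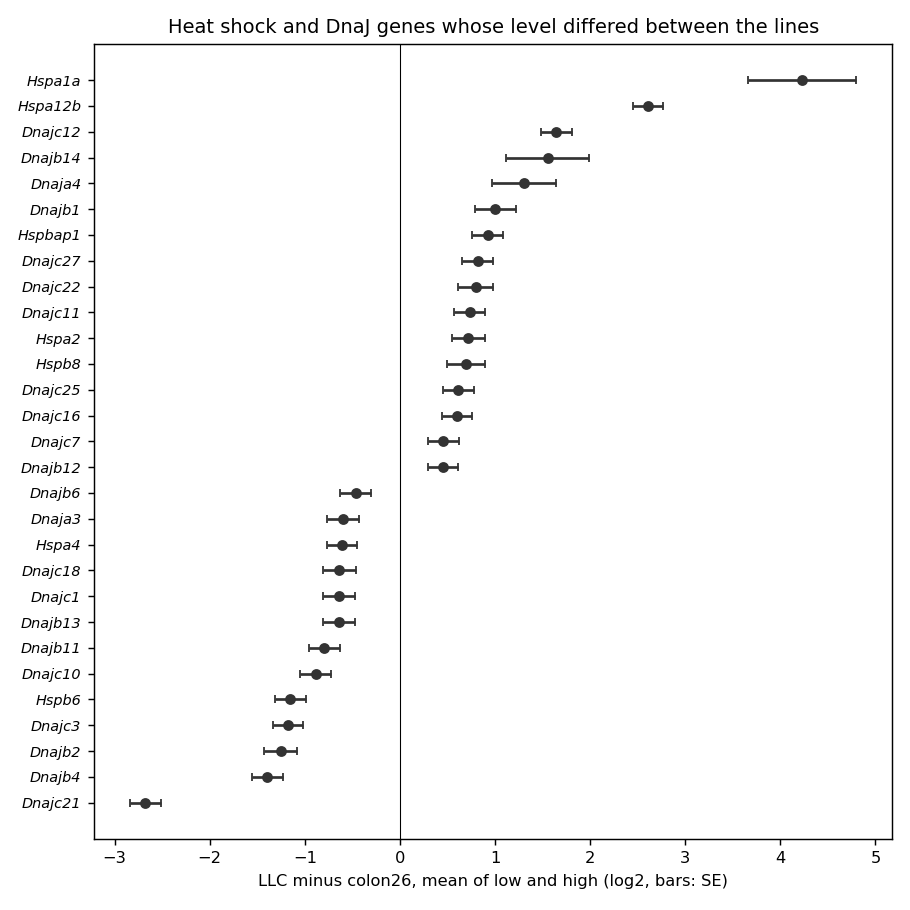
Difference in level between the lines (x axis, LLC minus colon26, log2; bars, SE) of the 29 heat shock and DnaJ genes that passed limma's test, on 4 pair means. Hspa1a lies farthest to the LLC side at 4.23, with the widest bar, and Dnajc21 farthest to the colon26 side at -2.68; for Hspa12b, Dnajc12, Dnaja4 and Dnajb13 all arrays of the lower line were at or below log2 5.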

How the data were processed

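Biotin-labelled cRNA, made from 6 ug of Trizol-extracted RNA of sorted tumour cells, was hybridised to 8 Affymetrix mouse arrays, per the labels' protocols. The deposited values are log2 signals of 45101 probe sets summarised by RMA, per the submitters' processing notes; its version, and which arrays were normalized as 1 set, is not given in the sources used here. For the colon26 samples 1 label, the description, says LLC; titles, sources and cell line fields say colon26 and were followed.

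Each gene was represented by its brightest probe set (mean of 8 arrays) among probe sets with 1 symbol in the platform annotation (34945 with 1, 932 with several, 9160 with none, 64 controls). Dnajc19 shares its 3 probe sets with a pseudogene and was left out. The 12177 genes with log2 above 5 on at least 2 arrays entered 1 model of limma 3.58.1 (lmFit and eBayes, R 4.3.3) in which the low and high array of a line and number formed a block, with 2 residual degrees of freedom and a prior of 8.25, and with Benjamini-Hochberg adjustment over all of them at 0.05. The pairing by number comes from the rule the genes were chosen with; the labels give only the numbers. Line levels used the 4 pair means with the number as a term. The fit was tested on simulated data. Promoters came from RefSeq, GRCm38.p6. Figures used matplotlib 3.10.9 in Python 3.11.15.

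The genes and lists were chosen with earlier results of these data known. Values were to be printed for each gene called in a contrast of high and low, for the 5 called genes with the largest line difference each way, for 28 core chaperones called or not, for up to 3 called genes of each other list by smallest p (or the 2 brightest where none was called), and for Gins1; a gene outside this rule was picked with its values in view. As alternatives the fit was repeated without the block, without the filter, with a filter of 7, on 1 line's arrays, after quantile normalization or median centring, with trend and robust moderation, with other probe set choices, on low or high arrays alone for line levels, and without each pair. The number of arrays limits the precision.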

Additional observations from a re-analysis of the deposited data

Results flagged for a closer look

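The change of Hspa1a differed between the lines: the LLC change minus the colon26 change was 1.45 (SE 0.28, adjusted p = 0.038 by limma), with -0.27 in LLC and -1.72 in colon26. It rests on 1 probe set and on colon26 high arrays close to the filter.

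For 6 other genes, both pairs of LLC went one way and both pairs of colon26 the other, while the test of the difference did not pass. The share of all genes with this pattern was not counted, so the number of such genes cannot be read as a trait of the family. The pattern holds for the brightest probe set of each gene. The second probe set of Hsph1 kept the pattern. A dimmer probe set split the colon26 pairs for Hsp90b1 and for Hspa13, and the pairs of both lines for Dnajb5. For Dnajc21 the second probe set kept the signs, and the dimmer ones gave the reverse. The LLC change minus the colon26 change was -0.78 for Hspa13 (adjusted p = 0.26 by limma), -0.63 for Hsp90b1 (adjusted p = 0.30) and -0.34 for Hsph1 (adjusted p = 0.57). It was -0.50 for Dnajc21 (adjusted p = 0.39) and 0.51 for Dnajc12 (adjusted p = 0.39), and 0.37 for Dnajb5 (adjusted p = 0.54), the last 2 with the higher value in LLC.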

How the results depend on the processing

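Called counts of the 61 genes moved with the processing. Without the replicate block, LLC, colon26, their mean and their difference gave 0 calls each (against 10, 1, 7 and 1 with the pairing), and the line levels gave 2 (against 29). In LLC the count was 6 without a filter, 4 with only that line's arrays, 5 with the mean of a gene's probe sets and 2 with its lowest probe set above the filter, while the calls among all genes went from 1342 to 1023, 943, 1203 and 778. It was 11 after median centring and 12 with trend and robust moderation (1453 and 1776 among all genes). In colon26 it was 2 under a filter of 7, with only that line's arrays, after median centring, with trend and robust moderation, and with either other probe set choice. The difference between the lines gave 0 calls without a filter, after quantile normalization and with the lowest probe set, and 2 with trend and robust moderation. The line levels gave 18 from the low arrays only. Leaving out 1 pair gave 1 to 4 calls in LLC, 0 to 2 in colon26, 1 to 4 for the mean and 0 to 1 for the difference; a lone pair was assumed to vary like those of the other line. Leaving out a pair was not possible for the line levels, where no residual degree of freedom would remain. Apart from the changed number of genes, arrays or probe sets, the cause was not tested.

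Of 29 named values that were called, 0 changed sign under an alternative, and of 47 that were not called, 26 did under at least 1. Signals near log2 5 limit what can be said of Hspa1a in colon26, Dnajb2 and Cryab in LLC, Hspb1, Hspb6 and Hspa2. They also limit the line levels of Hspa12b, Dnajc12, Dnaja4 and Dnajb13.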
